A study of Mus musculus with 5 samples.

Results

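The acute phase proteins are plasma proteins whose output from hepatocytes changes when the body meets infection or injury. The 10 examined here were Saa1, Saa2, Saa3, Saa4, Orm1, Orm2, Hp, Hpx, Apcs and Itih3, chosen by gene symbol from the 36401 genes in the deposited count tables. All 10 were found. They were compared between livers of BALB/C mice that were heterozygous for Mdr2 (Mdr2+/-, 3 libraries) and wild-type livers (Mdr2+/+, 2 libraries), to ask whether a systemic acute phase response was present. Both genotypes were neonates kept together as littermates, from Mdr2-/- stock crossed into BALB/c, and were killed on day 10 of life. Total RNA came from lobe 1 of the liver in every case, and no other allele or agent is named for either group. The labels give no sex or litter, and they leave unsaid whether every library came from its own pup, so p-values measure only the spread between these samples. Library totals were 11944157 to 17312851 estimated counts.

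In an acute phase response, interleukin-6 acts on hepatocytes through its receptor, the shared subunit gp130 and the transcription factor STAT3, while interleukin-1 and tumour necrosis factor act through NF-kB. C/EBP factors and glucocorticoids add to the response. In mice, Saa1, Saa2 and Saa3 belong to the inducible serum amyloid A genes and Apcs (serum amyloid P) is a major acute phase reactant, whereas Saa4 is the constitutive serum amyloid A of lipoprotein particles. Orm1 and Orm2 encode orosomucoid, a lipid- and drug-binding glycoprotein. Haptoglobin (Hp) clears free haemoglobin, hemopexin (Hpx) clears free heme, and Itih3 is a heavy chain of the inter-alpha-trypsin inhibitors that bind hyaluronan.

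The promoter sequences of 8 of the 10 members were found in the RefSeq table (build GRCm38.p6), and Orm1 and Hp had none there. Each ran from 250 bases before the start to 50 bases after it, and 4 are shown. Saa1 (chr7:46742931-46743230, minus strand) and Saa2 (chr7:46751583-46751882, plus strand) are shown because they are near-copies, Saa4 (chr7:46732554-46732853, minus strand) because it had the firmest difference of the members, and Apcs (chr1:172895005-172895304, minus strand) because it was the member that was lower. Capitals mark matches, on either strand, to a C/EBP motif (TTNNGCAA), a STAT motif (TTCNNNGAA) or an interleukin-6 response motif (CTGGGAA).
Saa1: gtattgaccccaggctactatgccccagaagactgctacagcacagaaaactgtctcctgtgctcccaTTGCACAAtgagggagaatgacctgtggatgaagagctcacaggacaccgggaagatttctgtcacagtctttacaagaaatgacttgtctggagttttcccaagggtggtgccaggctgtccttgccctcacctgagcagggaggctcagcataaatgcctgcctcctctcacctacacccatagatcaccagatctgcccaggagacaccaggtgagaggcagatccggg
Saa2: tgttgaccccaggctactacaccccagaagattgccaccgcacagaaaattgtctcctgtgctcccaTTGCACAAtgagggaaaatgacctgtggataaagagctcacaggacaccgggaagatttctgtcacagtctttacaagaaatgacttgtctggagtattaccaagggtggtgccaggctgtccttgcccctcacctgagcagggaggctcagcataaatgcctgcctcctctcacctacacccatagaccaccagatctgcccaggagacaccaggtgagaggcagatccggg
Saa4: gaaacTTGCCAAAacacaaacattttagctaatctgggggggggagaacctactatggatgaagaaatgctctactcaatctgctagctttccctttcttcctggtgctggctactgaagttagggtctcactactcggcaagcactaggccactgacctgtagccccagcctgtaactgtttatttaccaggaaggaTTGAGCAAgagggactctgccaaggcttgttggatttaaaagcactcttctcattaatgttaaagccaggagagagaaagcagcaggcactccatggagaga
Apcs: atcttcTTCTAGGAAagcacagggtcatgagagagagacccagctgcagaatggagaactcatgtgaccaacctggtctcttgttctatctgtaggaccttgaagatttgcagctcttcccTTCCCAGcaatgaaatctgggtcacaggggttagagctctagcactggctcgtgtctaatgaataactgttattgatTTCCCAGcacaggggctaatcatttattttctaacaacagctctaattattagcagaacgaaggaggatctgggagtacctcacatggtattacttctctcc
The Saa1 and Saa2 promoters were 95.3% identical (287 of 301 aligned positions), and the C/EBP letters stood 182 bases before the Saa1 start and 183 bases before the Saa2 start. Saa4 held the C/EBP letters at 245 and 52 bases before its start. In Apcs the STAT letters stood 244 bases before the start and the interleukin-6 letters at 129 and 52 bases before it. None of these matches overlapped another. Of the 8 member promoters, 6 held the C/EBP letters (Saa1, Saa2, Saa3, Saa4, Orm2 and Hpx), against 10.8% of 32851 promoters of the same length. The near-copies Saa1 and Saa2 are counted separately among the 8, so these shares are not of independent sequences. The STAT letters were in 1 of 8, against 8.30% of promoters, and the interleukin-6 letters in 1 of 8, against 11.1%. A consensus NF-kB motif matched 0 of 8, against 8.46%. A match is a description of letters in these windows and does not show binding.

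Levels below are CPM, that is counts scaled to each library by its normalised size. Abcb4, the current name of Mdr2 and the gene of the canalicular phospholipid floppase, was read first as a check of the labels. It had 101, 97.7 and 92.6 CPM in Mdr2+/- livers, against 162 and 162 CPM in Mdr2+/+ livers, a ratio of 0.598 (log2 fold change -0.74, edgeR quasi-likelihood test, adjusted p = 3.4e-04). Across all genes, 12.0% of 13959 tested genes passed an adjusted p of 0.05, 6.63% as higher and 5.41% as lower in Mdr2+/- livers. Scaling by library size alone turned the split of 925 higher and 755 lower genes to 704 higher and 936 lower. Of the 10 members, 8 were abundant enough to test. Of these, Saa4 and Itih3 rose, Apcs fell, and 5 did not pass. Saa2 passed the count filter only through the Mdr2+/- libraries, where it is higher, so it is left out of the next values. The other 7 tested members had a median log2 fold change of 0.18, against -0.0025 over all tested genes. In 6 of the 7 the genotypes did not overlap, and the share without overlap was 45.6% over all tested genes.

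**Figure D1:**
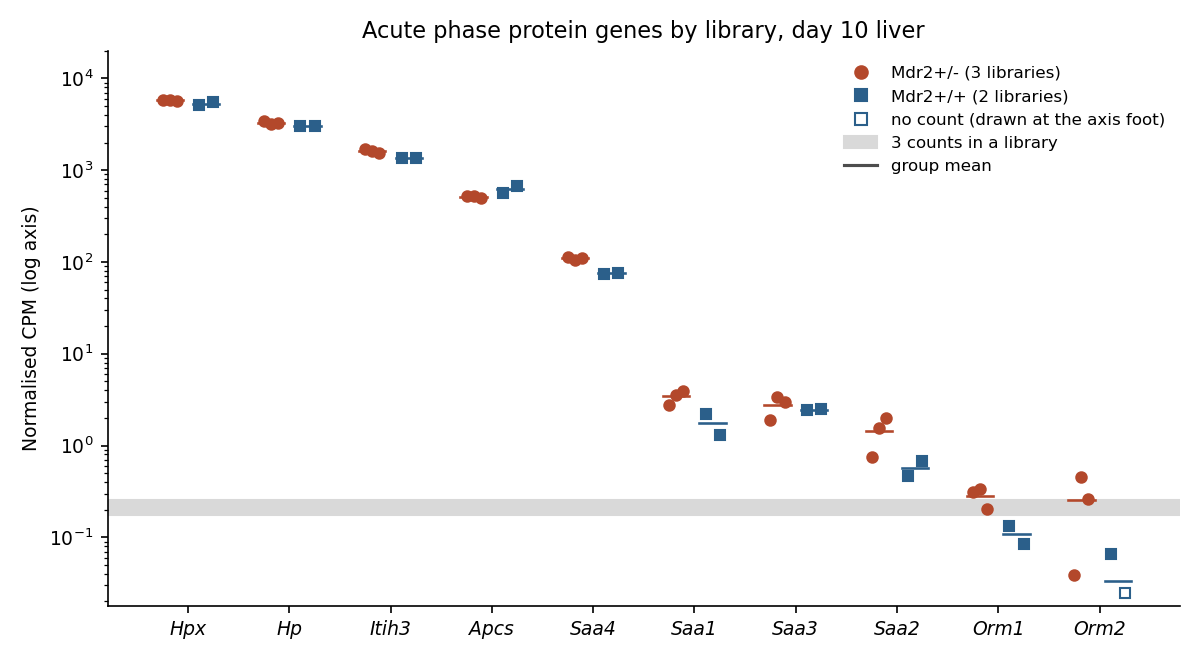
Normalised CPM of the 10 members on a log axis, with 1 point per library, Mdr2+/- left of Mdr2+/+, horizontal bars for group means, and the level of 3 counts shaded. Hpx and Hp stood above 3000 CPM in every library, and Saa4 lay at 106 to 112 CPM in Mdr2+/- livers against 73.3 to 76.6 CPM in Mdr2+/+ livers. Orm1 (0.0841 to 0.334 CPM) and Orm2 (0 to 0.455 CPM) had points on both sides of the shaded level.

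The members spanned a wide range of abundance. Per kilobase of the longest coding transcript, Mdr2+/- livers had the order Hpx (3877 CPM per kilobase), Hp (2439), Itih3 (543), Apcs (528), Saa4 (52.4), Saa1 (5.64), Saa2 (2.18), Saa3 (1.26), Orm1 (0.366) and Orm2 (0.325). The Mdr2+/+ order was the same except that Apcs (637 CPM per kilobase) stood above Itih3 (451) and Saa3 (1.12) above Saa2 (0.871). In Mdr2+/- livers the libraries of Itih3 and Apcs overlapped in level per kilobase, as did those of Saa2 and Saa3 and those of Orm1 and Orm2. Saa3 has a shorter coding transcript of 555 bases besides the 2200 used here, so its level per kilobase depends on which is made. Hpx ranked 11th in Mdr2+/- livers and 13th in Mdr2+/+ livers among 13571 genes with a length, and Hp 17th and 22nd. Saa1 ranked 5863rd in Mdr2+/- livers and 8171st in Mdr2+/+ livers. The 10 members together took 1.11 to 1.13% of all counts in Mdr2+/- libraries and 1.05 to 1.06% in Mdr2+/+ libraries, and Hp and Hpx made up 79.7 to 80.7% of the members' counts in every library.

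Saa4 (chromosome 7, 46727998 to 46732603, minus strand, mm10) was the member with the firmest difference. It had 112, 106 and 111 CPM in Mdr2+/- livers, against 73.3 and 76.6 CPM in Mdr2+/+ livers, so that the groups lay well apart. The group levels were 109.7 ± 3.13 CPM in Mdr2+/- livers and 75.0 ± 2.36 CPM in Mdr2+/+ livers (SD, n = 3 and n = 2). Saa4 was 1.46-fold higher (95% interval 1.33 to 1.61, log2 fold change 0.55, SE 0.06, edgeR adjusted p = 0.0011) and passed in all 13 alternative fits. Saa4 shared 1.27% of its 50-base stretches with other genes. In bulk liver, more or fewer cells of a type and more or less RNA per cell cannot be told apart. This holds for Saa4 and every later difference.

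The inducible Saa1 (chromosome 7, 46740497 to 46742980, minus strand) and Saa2 (46751790 to 46754313, plus strand) were low in every library. Saa1 had 2.79, 3.56 and 3.95 CPM in Mdr2+/- livers, against 2.21 and 1.30 CPM in Mdr2+/+ livers. The groups did not overlap, but the 1.90-fold difference (95% interval 1.26 to 2.86) had an edgeR adjusted p of 0.0511, and Saa1 passed in 5 of 13 alternative fits (adjusted p = 0.00986 to 0.22). Saa2 had 0.746, 1.55 and 1.98 CPM in Mdr2+/- livers, against 0.462 and 0.673 CPM in Mdr2+/+ livers. The Mdr2+/+ libraries of Saa2 were under the 0.683 CPM minimum of the count filter, which thus favoured a higher Mdr2+/- level. Its difference did not pass (edgeR adjusted p = 0.0715). Their coding transcripts are 87.3% identical, and 14.8% of the 50-base stretches of Saa1 and 9.12% of those of Saa2 occur in another gene, so the split of reads between them is uncertain. Saa1 took 78.9, 69.7 and 66.7% of the pair's counts in Mdr2+/- libraries and 82.7 and 66.0% in Mdr2+/+ libraries, with no separation of the groups.

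Summed into a single feature, Saa1 and Saa2 had 3.53, 5.11 and 5.93 CPM in Mdr2+/- livers, against 2.67 and 1.98 CPM in Mdr2+/+ livers. The sum was 2.08-fold higher in Mdr2+/- livers (95% interval 1.39 to 3.12, log2 fold change 1.06, SE 0.26, edgeR adjusted p = 0.0291). The lowest Mdr2+/- library lay above the highest Mdr2+/+ library by less than the Mdr2+/- SD of 1.22 CPM. The call ended without Mdr2+/+ replicate 1 (adjusted p = 0.084) or 2 (0.132) and without Mdr2+/- replicate 2 (0.0776) or 3 (0.0785).

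Saa3 (chromosome 7, 46711998 to 46715700, minus strand), which in mice is also made by macrophages and fat cells, had 1.92, 3.42 and 3.00 CPM in Mdr2+/- livers, against 2.43 and 2.48 CPM in Mdr2+/+ livers. The groups overlapped, the ratio was 1.14 (95% interval 0.755 to 1.71), and the difference did not pass in the main setting (edgeR adjusted p = 0.699) or in any of 13 alternatives. Of 6 adipocyte markers, Adipoq and Lep, named after their values were seen, were at 0 counts in every library. Only 2 of the 6 could be tested, and 0 were called. The 6 together summed to 23.1 to 31.5 CPM in Mdr2+/- libraries and 23.0 to 25.8 CPM in Mdr2+/+ libraries. The 10 Kupffer cell markers summed to 421 to 487 CPM in Mdr2+/- libraries and 420.5 to 608 CPM in Mdr2+/+ libraries. The part of fat cells or macrophages in the Saa3 level was not tested.

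The orosomucoid genes on chromosome 4 were too low to test. Orm1 (63344560 to 63348163, plus strand) had 4, 5.5 and 3.5 estimated counts in Mdr2+/- libraries, against 2 and 1 in Mdr2+/+ libraries. Orm2 (63362449 to 63365878, plus strand) had 0.5, 7.5 and 4.5 counts in Mdr2+/- libraries, against 1 and 0 in Mdr2+/+ libraries. Their neighbour Orm3, between them and named after its values were seen, had 0.5 counts in Mdr2+/- replicate 1 and 0 in the others. Coding transcripts of Orm1 and Orm2 are 91% identical, so their reads may be split wrongly. Together the 3 genes had 26 counts in Mdr2+/- livers and 4 in Mdr2+/+ livers, or 0.560 CPM against 0.148 CPM, where 3 counts over a group would be 0.0646 CPM and 0.111 CPM. The ratio was 3.79 with an exact 95% interval of 1.31 to 14.9, which covers counting error only and not the spread between livers. Fitted with no count filter, the sum did not pass (edgeR adjusted p = 0.075).

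The scavengers of free haemoglobin and heme were the most abundant members. Hp (chromosome 8, 109575128 to 109579172, minus strand) had 3391, 3181 and 3270 CPM in Mdr2+/- livers, against 3045 and 3055 CPM in Mdr2+/+ livers. Every Mdr2+/- library was higher, but the ratio was 1.08 (95% interval 0.979 to 1.18, edgeR adjusted p = 0.292), and Hp passed in 0 of 13 alternative fits (adjusted p = 0.0733 to 0.514). Hpx (chromosome 7, 105591613 to 105600137, minus strand) had 5824, 5884 and 5727 CPM in Mdr2+/- livers, against 5105 and 5467 CPM in Mdr2+/+ livers. Its ratio was 1.10 (95% interval 0.999 to 1.21, edgeR adjusted p = 0.179), again with 0 of 13 alternatives called (0.051 to 0.426). Both intervals end well short of a doubling. Hpx carried 1.72, 1.85 and 1.75 counts for each count of Hp in Mdr2+/- libraries and 1.68 and 1.79 in Mdr2+/+ libraries, so their proportion overlapped between genotypes.

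Apcs (chromosome 1, 172893961 to 172895041, minus strand) was the member that fell. It had 518, 520.4 and 499.8 CPM in Mdr2+/- livers, against 569 and 668 CPM in Mdr2+/+ livers. The groups did not overlap, and the Mdr2+/+ libraries lay further from each other than the Mdr2+/- libraries did. The level was 513 ± 11.3 CPM in Mdr2+/- livers and 618 ± 69.9 CPM in Mdr2+/+ livers, a ratio of 0.830 (95% interval 0.737 to 0.934, log2 fold change -0.27, SE 0.08, edgeR adjusted p = 0.0492). This call was borderline. Without Mdr2+/+ replicate 2 the log2 fold change was -0.15 (adjusted p = 0.25), and the call also ended without Mdr2+/- replicate 1, 2 or 3 (0.0885, 0.114 and 0.136). With a correction for transcript length the log2 fold change was -0.12 (adjusted p = 0.371), with the size factors of DESeq2 the adjusted p was 0.0517, and Apcs was called in 6 of 13 alternatives.

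Itih3 (chromosome 14, 30908572 to 30923760, minus strand) had 1712, 1627 and 1537 CPM in Mdr2+/- livers, against 1346 and 1354 CPM in Mdr2+/+ livers. Each Mdr2+/- library was above both Mdr2+/+ libraries, and the 1.20-fold rise (95% interval 1.09 to 1.34, log2 fold change 0.27, SE 0.07) passed (edgeR adjusted p = 0.031). It was called in 9 of 13 alternatives, and the call ended without Mdr2+/+ replicate 1 (0.0987) or 2 (0.08) and without Mdr2+/- replicate 1 (0.0812) or 2 (0.0977). The rises of Itih3 and Saa4 and the fall of Apcs were therefore of unequal firmness.

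**Figure D2:**
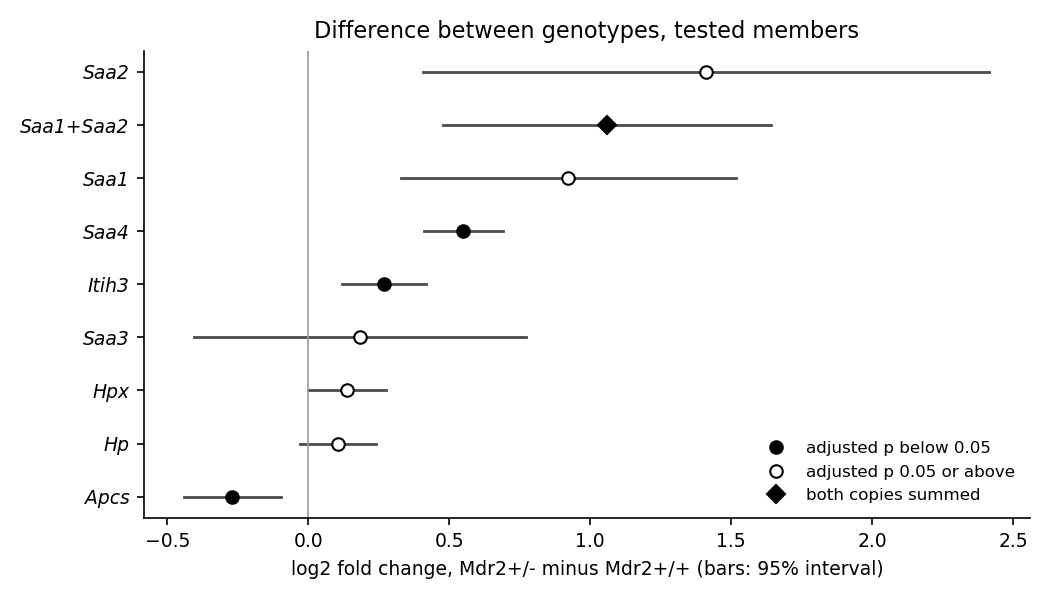
Log2 fold change of the tested members and of summed Saa1 and Saa2, Mdr2+/- over Mdr2+/+, with 95% intervals. The intervals of Saa4, Itih3, Saa1, Saa2 and the sum lie above 0, that of Apcs lies below it, and those of Saa3, Hp and Hpx reach below 0. Saa1 and Saa2 had adjusted p of 0.0511 and 0.0715, and the low-abundance Saa genes have the widest intervals.

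Of 9 relatives of the members, 6 could be tested. Of these, 3 rose and 0 fell (median log2 fold change 0.18), against 6.63% and 5.41% of all tested genes. Itih4, a further inter-alpha-trypsin inhibitor heavy chain, had 3130 ± 238 CPM in Mdr2+/- livers and 2378 ± 81.2 CPM in Mdr2+/+ livers (log2 fold change 0.40, edgeR adjusted p = 0.0112). Itih1 had 1163 ± 50.6 CPM in Mdr2+/- livers and 941 ± 15.7 CPM in Mdr2+/+ livers (log2 fold change 0.31, edgeR adjusted p = 0.0163). Crp, a pentraxin like Apcs but only a minor reactant in mice, also rose (log2 fold change 0.28, edgeR adjusted p = 0.0336), in the opposite direction to Apcs. Itih5 (log2 fold change -0.20, adjusted p = 0.15) and, named after their values were seen, Itih2 (0.07, 0.496) and Ambp (-0.02, 0.83), which encodes the light chain bikunin, did not pass. With a correction for transcript length Itih5 was called lower (-0.33, 0.0391). The call of Crp ended without Mdr2+/+ replicate 1 (adjusted p = 0.186, log2 fold change 0.20) and without Mdr2+/- replicate 1, 2 or 3 (0.0633, 0.0641 and 0.0974). Itih1 was lost without Mdr2+/+ replicate 1 (0.0713) or Mdr2+/- replicate 2 (0.0613), and Itih4 without Mdr2+/+ replicate 1 (0.0576).

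Among 22 other positive acute phase genes, all tested, 8 rose and 1 fell, where 6.63% and 5.41% of all tested genes did. The median log2 fold change of the list was 0.16. A2m, a broad protease inhibitor, had 170, 230.3 and 167 CPM in Mdr2+/- livers, against 22.1 and 14.8 CPM in Mdr2+/+ livers (10.1-fold, edgeR adjusted p = 4.3e-05). Hamp, the gene of the iron hormone hepcidin, went the opposite way, with 2.86, 5.43 and 3.93 CPM in Mdr2+/- livers, against 89.1 and 71.5 CPM in Mdr2+/+ livers (log2 fold change -4.27, edgeR adjusted p = 7.3e-06). Neither came close to overlapping, and both passed in all 13 alternatives, as did C3, the central complement component (log2 fold change 0.54, edgeR adjusted p = 0.00168).

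Lcn2, a siderophore-binding protein made by stressed hepatocytes and also stored in neutrophil granules, had 23.6, 30.8 and 32.4 CPM in Mdr2+/- livers, against 17.9 and 17.0 CPM in Mdr2+/+ livers (log2 fold change 0.73, edgeR adjusted p = 0.00874). Its call ended without Mdr2+/+ replicate 1 (0.0519) or 2 (0.0524). Of 13 neutrophil markers, 10 rose and 0 fell, against 6.63% and 5.41% of all tested genes. The markers summed to 370.3 to 469 CPM in Mdr2+/- libraries against 120.2 to 172 CPM in Mdr2+/+ libraries. The part of neutrophils in the Lcn2 difference was not tested. Named after their values were seen, the complement and lectin genes C4b (log2 fold change 0.42), Cfb (0.36) and Mbl2 (0.40) rose, as did Serpina3m (0.54) and the metalloreductase gene Steap4 (0.45). Of these, Serpina3m kept its call with each library left out, whereas C4b (adjusted p = 0.0682), Cfb (up to 0.0801), Mbl2 (up to 0.0892) and Steap4 (0.0624) lost theirs in at least 1 such fit. Classical reactants, also named after their values were seen, did not pass. These included the fibrinogen chains Fga, Fgb and Fgg (log2 fold change 0.11, 0.02 and 0.06), ceruloplasmin Cp (0.12), the lipopolysaccharide-binding protein gene Lbp (0.04), Lrg1 (-0.08) and Serpina3n (-0.07), with adjusted p between 0.244 and 0.862. Larger fold changes that did not pass, likewise named after their values were seen, were those of Mt2 (log2 fold change 0.50, edgeR adjusted p = 0.362), Cd14 (0.34, 0.305) and Mt1 (0.19, 0.708). Every Mdr2+/- library was higher for Cd14. Across the alternatives the log2 fold change ran from -0.13 to 1.47 for Mt2 and from -0.32 to 0.91 for Mt1.

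**Figure D3:**
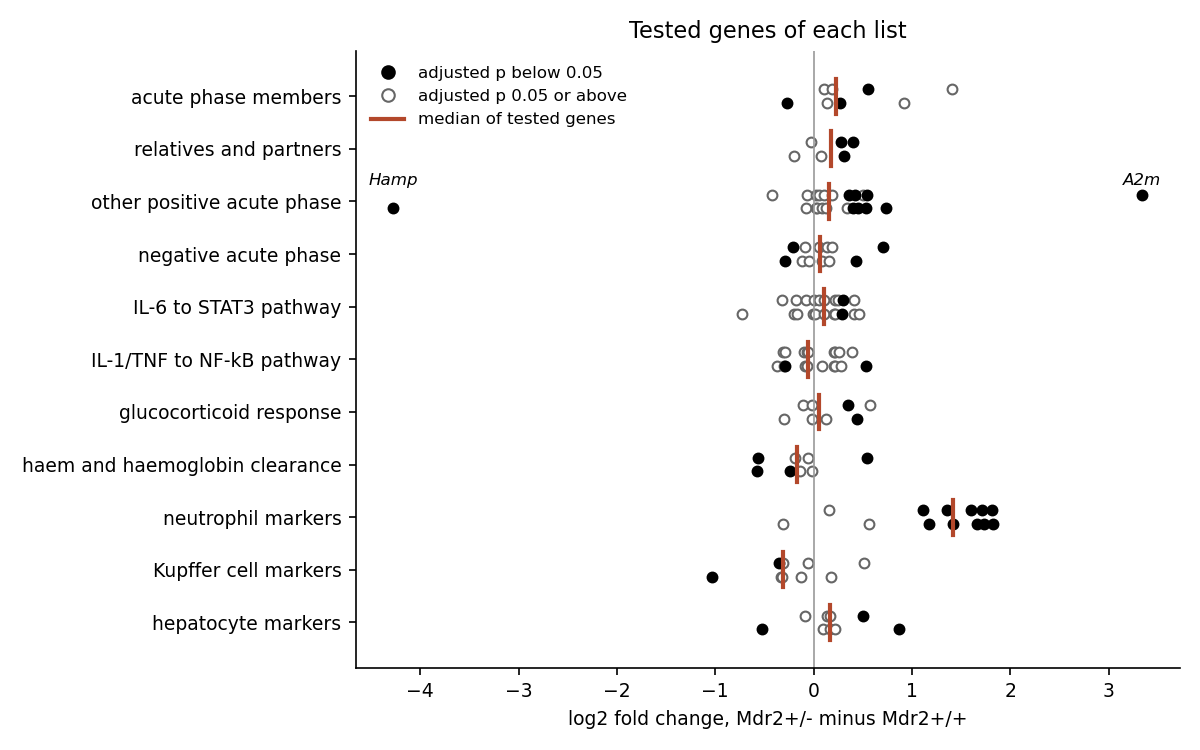
Log2 fold change, Mdr2+/- over Mdr2+/+, of each tested gene in the members and the other lists, with list medians as bars and called genes filled. The positive acute phase genes spread from Hamp at -4.27 to A2m at 3.34, while the members other than Saa1 and Saa2 lie between -0.27 and 0.55.

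The 12 negative acute phase genes, whose plasma proteins fall in inflammation, were all tested. Of these, 2 rose and 2 fell (median log2 fold change 0.07), against 6.63% and 5.41% of all tested genes. Serpina6, the gene of corticosteroid-binding globulin, had 295, 330.1 and 389.9 CPM in Mdr2+/- livers, against 174 and 242 CPM in Mdr2+/+ livers (log2 fold change 0.71, edgeR adjusted p = 0.0155). Igf1 also rose (log2 fold change 0.43, edgeR adjusted p = 0.0171). The retinol carrier Rbp4 (log2 fold change -0.29, adjusted p = 0.0131) and Apoa1 (-0.21, 0.0458) fell, while albumin, Alb, named after its values were seen, did not pass (0.14, 0.236). The list therefore held genes that moved both ways. With a correction for transcript length, Rbp4 (log2 fold change -0.17, adjusted p = 0.117), Apoa1 (-0.07, 0.519) and Igf1 (0.31, 0.0892) lost their calls. Robust limma ended the call of Serpina6 (0.0865), and a minimum of 10 counts in every library that of Apoa1 (0.0799). Calls also ended with single libraries left out: Serpina6 without Mdr2+/+ replicate 1 (0.48, 0.0894), Igf1 without Mdr2+/+ replicate 1 (0.28, 0.0828) or Mdr2+/- replicate 2 (0.0617), Rbp4 without Mdr2+/- replicate 2 or 3 (0.0682 and 0.0553), and Apoa1 in 4 of 5 such fits (0.0731 to 0.199).

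The signals that drive the response were examined next. Of 26 genes of the interleukin-6 and STAT3 axis, 21 could be tested, and 2 rose and 0 fell (median log2 fold change 0.10). Over all tested genes, 6.63% rose and 5.41% fell. The share of this list called in either direction did not exceed the 12.0% over all tested genes. The ligand Il6, named after its values were seen, had 0 counts in the Mdr2+/- libraries and in Mdr2+/+ replicate 1, and 0.0841 CPM in Mdr2+/+ replicate 2, all under the 3-count level of 0.174 to 0.252 CPM per library. Il22, likewise named after its values were seen, was at 0 in every library. Il6st, the gp130 subunit, had 83.6, 78.1 and 73.5 CPM in Mdr2+/- livers, against 63.6 and 63.5 CPM in Mdr2+/+ livers (log2 fold change 0.30, edgeR adjusted p = 0.0246). Lifr, the receptor subunit for leukaemia inhibitory factor, also passed (log2 fold change 0.29, edgeR adjusted p = 0.0443). Il6ra (log2 fold change 0.41, adjusted p = 0.0712) and Ptpn11 (0.20, 0.0766) did not. Il6ra passed with no count filter (0.00533), with replicate number added as a block (0.0381) and without Mdr2+/- replicate 3 (0.0485). Its log2 fold change was only 0.27 without Mdr2+/- replicate 1 (0.0948) and 0.27 with a correction for transcript length (0.216). With that correction Ptpn11 had 0.11 (0.371).

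Both called receptors are sensitive to the processing. With a correction for transcript length the log2 fold change was 0.16 for Il6st (adjusted p = 0.173) and 0.14 for Lifr (0.356), and each was lost in 4 of the 5 fits that left out a library (0.0581 to 0.16). Scaling by library size alone also ended the call of Lifr (0.078). Named after their values were seen, the target and feedback gene Socs3 had a log2 fold change of 0.21 (adjusted p = 0.612), Stat3 0.06 (0.64), Cebpb -0.18 (0.392) and Cebpd 0.01 (0.977). None of these passed.

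Of 21 genes of the interleukin-1, tumour necrosis factor and NF-kB axis, 19 could be tested, and 1 rose and 1 fell (median log2 fold change -0.05). The share called in either direction did not exceed the 12.0% over all tested genes. Nfkb2, a subunit of the alternative NF-kB pathway, had 12.5, 11.0 and 13.4 CPM in Mdr2+/- livers, against 9.11 and 7.74 CPM in Mdr2+/+ livers (log2 fold change 0.53, edgeR adjusted p = 0.031). The interleukin-1 receptor Il1r1 fell (log2 fold change -0.29, edgeR adjusted p = 0.0444). Rela (0.21, 0.0787) and Il18 (-0.37, 0.0812) did not pass, and Il18 had -0.21 (0.309) with a correction for transcript length. Nfkb2 was lost in 4 of the 5 fits that left out a library (0.0637 to 0.139) and Il1r1 in 5 of 5 (0.0857 to 0.207). DESeq2 did not call either (adjusted p = 0.0606 for Nfkb2 and 0.188 for Il1r1), nor did the fit with no count filter call Il1r1 (0.0561).

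Glucocorticoid signalling was read from 8 genes, all tested. Of these, 2 rose and 0 fell (median log2 fold change 0.06), against 6.63% and 5.41% of all tested genes. The receptor Nr3c1 had a log2 fold change of 0.35 (edgeR adjusted p = 0.00684). The receptor's co-chaperone Fkbp5, itself a glucocorticoid target, had 0.44 (0.00544). Both passed in all 13 alternatives. The targets Dusp1 (log2 fold change 0.58, adjusted p = 0.257) and Tsc22d3 (0.13, 0.553) did not pass. Both were unstable. Dusp1 passed with no count filter (0.0391), but its log2 fold change was 0.12 without Mdr2+/- replicate 3 (adjusted p = 0.659). That of Tsc22d3 was -0.086 without Mdr2+/+ replicate 1 and 0.36 without Mdr2+/+ replicate 2, called in neither.

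The genes that act after haptoglobin and hemopexin have bound their cargo were also compared. Of these 8 genes, all tested, 1 rose and 3 fell (median log2 fold change -0.17), against 6.63% and 5.41% of all tested genes. Lrp1, the receptor that takes up heme-hemopexin and also A2m complexes, rose (log2 fold change 0.54, edgeR adjusted p = 0.00206), and the biliverdin reductase Blvrb fell (-0.56, 0.0016), both in all 13 alternatives. Cd163, the macrophage receptor for haptoglobin-haemoglobin, fell (-0.58, 0.0232), as did the ferritin chain Fth1 (-0.24, 0.0344). Cd163 was lost without Mdr2+/+ replicate 1 (log2 fold change -0.37, adjusted p = 0.175) or Mdr2+/- replicate 2 or 3 (0.0701 and 0.0736), and Fth1 in 5 of 5 such fits (0.0624 to 0.121) and with the length correction (0.15). Hmox1, heme oxygenase, named after its values were seen, did not pass (-0.05, 0.737).

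Erythroid markers were lower beside this group. Of 10 matched erythroid markers, 9 fell and 0 rose, against 5.41% and 6.63% of all tested genes. The erythroid markers summed to 3399 to 3956 CPM in Mdr2+/- libraries against 5860.0 to 7074 CPM in Mdr2+/+ libraries. Of 10 Kupffer cell markers 2 fell, 0 rose and 8 did not pass, and their summed level, given with Saa3, overlapped between the genotypes. The part of these cells in the Blvrb, Fth1 and Cd163 differences was not tested. The 9 hepatocyte markers, which check the tissue, summed to 159463 to 173818 CPM in Mdr2+/- libraries and 145045 to 159543 CPM in Mdr2+/+ libraries, with 2 higher and 1 lower.

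**Figure D4:**
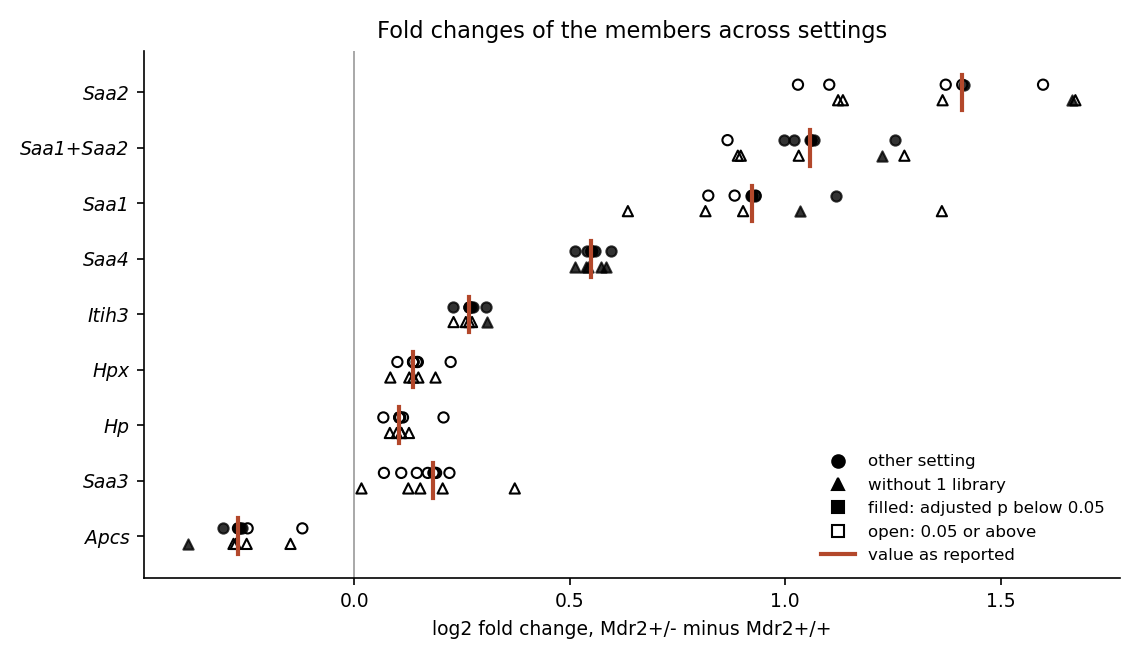
Log2 fold change of each tested member and of summed Saa1 and Saa2, Mdr2+/- over Mdr2+/+, as reported (vertical bars), with a library left out (triangles) and in the other alternatives (circles), filled where the adjusted p was below 0.05. Saa4 stays between 0.51 and 0.60 and is filled throughout, while Saa1 ranges from 0.64 to 1.36 and is filled in 5 alternatives.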

How the data were processed

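Total RNA from snap-frozen liver was turned into TruSeq RNA libraries and read on an Illumina HiSeq, per the labels' protocols. TopHat and the build mm10 appear in the submitters' processing notes. What counted the reads, with which annotation and strand setting, is not given in the sources used here. The authors deposited estimated counts per gene for each library, with no scaling for depth or length.

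Estimated counts were rounded, which changed library totals by 201 to 309. Genes were kept by filterByExpr (minimum count 10, that is 0.683 CPM in at least 2 libraries), leaving 13959 genes with 99.9% of counts. Libraries were scaled by TMM, and genotypes were compared with the two-sided quasi-likelihood test of edgeR 4.0.16 in R 4.3.3, adjusted by Benjamini-Hochberg over all tested genes (threshold 0.05). Log2 fold changes are Mdr2+/- over Mdr2+/+, and the SE is the absolute log2 fold change over the square root of F. At a common biological coefficient of variation of 0.0762, the 5 libraries set the precision; for genes near 3 counts (0.174 to 0.252 CPM per library), counting error does. The procedure was tested on simulated data. No libraries were duplicates: the chi-square per degree of freedom was 5.3 to 8.86 within a genotype (genes with at least 20 counts).

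The 13 alternatives were scaling by the size factors of DESeq2 or by library size alone, no filter or at least 10 counts in every library, DESeq2 1.42.0, robust limma 3.58.1, the replicate block, a transcript length offset, and each of 5 libraries left out. The members and the 14 other gene lists were chosen with earlier results of these data known. The text names the members, Abcb4 and up to 4 genes of smallest p in each list other than cell markers; genes named otherwise are marked as such. Coordinates, lengths and identities came from GENCODE M21 (31782 identifiers matched, 87.3%), using the longest coding transcript, and promoters from RefSeq.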

Additional observations from a re-analysis of the deposited data

How the results depend on the processing

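Among the fitted fold changes of the members, the sums and the other genes named by rule, 1 changed sign: Tsc22d3, called in no fit, had a log2 fold change of -0.086 without Mdr2+/+ replicate 1 (adjusted p = 0.694) within a range of -0.086 to 0.36 with a library left out. Of single-gene comparisons with an alternative, 396 were unchanged, 72 lost the call and 12 gained it. Unchanged means the same direction and side of the threshold. For Orm1 and Orm2, which had no main test, it means a fold change within the exact interval for counting error. Scaling by library size alone left more genes lower (936) than higher (704). Members called higher numbered 4 with no count filter, when Saa1 and Saa2 passed, and 1 to 3 with a library left out. Members called lower numbered 0 with the size factors of DESeq2, the replicate block or the length offset, where Apcs was lost, and 0 to 1 with a library left out. With a library left out, 345 to 670 genes were higher and 352 to 504 lower over all genes; fewer samples were tested. The log2 fold change of summed Saa1 and Saa2 was 0.87 with the replicate block (adjusted p = 0.0793) and 0.89 to 1.28 with a library left out. Same-numbered livers correlated by 0.0304 and 0.0286 in their deviations from the group means. With 2 Mdr2+/+ libraries these deviations mirror each other, so the correlations cannot decide whether equal numbers mark a pairing. The replicate block called 730 genes higher and 547 lower. Summed Orm genes could be fitted only with no filter or without an Mdr2+/+ library (log2 fold change 1.46 to 2.61, not called). Saa2 was not tested with at least 10 counts in every library, and DESeq2 gave it no adjusted p. Depth limits Saa1, Saa2, Saa3 and the Orm genes, and 2 Mdr2+/+ libraries limit the others.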
